A study of Rattus norvegicus with 24 samples.

Results

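The T cell receptor complex and its signalling markers were followed through 10 genes, *Cd2*, *Cd3d*, *Cd3e*, *Cd3g*, *Cd4*, *Cd5*, *Cd8a*, *Cd28*, *Lck* and *Zap70*. All non-control probes that carry these names in the array files were taken, with a suffix such as "_predicted" removed, and this gave 11 of 8453 probes and 10 of 7276 gene names. The rule is a list of gene names. Skin from the paws of 12 male BN rats aged 15 weeks was kept as explants, 2 for each rat. The syngeneic explant received lymphocytes of BN donors and the allogeneic explant those of PVG donors, and both were kept for 3 days. In both cases 1000000 responder cells from rat spleens were added after 7 days of a mixed lymphocyte reaction with BN splenocytes irradiated with 25 Gy. According to the methods, cells not attached to or inside the explant were washed off before freezing. RNA from an explant therefore comes from skin cells, from leukocytes that were resident in it and from lymphocytes that were added and retained. In such RNA, fewer cells of a type and less RNA per cell cannot be told apart.

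The T cell receptor is a pair of variable chains that bind peptide on MHC molecules and cannot signal alone. The invariant chains of the CD3 complex carry the signal into the cell, the co-receptors CD4 and CD8 bring the kinase LCK to the receptor, and LCK phosphorylates CD3 chains, to which the kinase ZAP-70 then binds. CD2 and CD28 add adhesive and co-stimulatory signals, whereas CD5 dampens signalling from the receptor. Alloreactive T cells that recognize foreign MHC molecules are the main effectors of a graft versus host reaction, in which skin is a typical target.

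The values below were measured by 60-base probes, of which the *Cd2* probe (chr2:196299959-196300018 of build rn3, minus strand) is shown whole. For the other genes with a significant change, and for *Zap70*, the first 30 bases are shown to identify what was measured. The probes of *Cd5* (chr1:213371880-213371939, minus), *Lck* (chr5:148717697-148717756, minus) and *Cd8a* (chr4:104837964-104838023, plus) are given without capitals. In the *Zap70* probes (probe 1 at chr9:35716379-35716438 and probe 2 at chr9:35716375-35716434, plus), capitals mark the bases printed for both. These probes share 56 of their bases, so that they measure 1 target and are no independent evidence.
Cd2: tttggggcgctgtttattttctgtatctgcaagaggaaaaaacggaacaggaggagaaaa
Cd5: ttggactcttgacgccatgaacgaatgatg
Lck: ttagagaccacctaaggtgtctctttccat
Cd8a: tgtaaaatggcgccactaggaagccacaac
Zap70 probe 2: cagtGGGCCGAGAGTGTATGTGCTCCCAAA
Zap70 probe 1: GGGCCGAGAGTGTATGTGCTCCCAAAtcta

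Each rat gave 2 arrays with exchanged dyes, which were averaged, so that n is 12 rats throughout. The 24 arrays lay on 3 slides with 4 rats each. Median spot intensities were 135 to 6668 in Cy3 and 269 to 25642 in Cy5, with array 1 of rat 10 far brighter than the others. The 2 arrays of a rat had a correlation of 0.133 to 0.944 over all probes, and it was under 0.5 in 4 rats. Rat 8 stood apart from the other rats, with a median correlation of 0.170. Of 18 listed keratinocyte genes 4 were measured (*Cdh1*, *Dsc3*, *Jup*, *Tp63*), and of 8 listed fibroblast genes 2 (*Col1a2*, *Pdgfra*). All of them were well above background on 24 of 24 arrays in both samples. On the median array, 85.3% of all non-control spots in Cy3 and 86.1% in Cy5 were well above background too. Detection of these markers therefore does not identify the tissue.

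Signal was significantly lower in the samples labelled as allogeneic for 4 of the genes, *Cd5*, *Lck*, *Cd8a* and *Cd2*. The sign of every value follows the dye labels. For most of the immune genes whose direction the study gives, it is opposite to the study's direction. By the study's account, qRT-PCR on part of the same sample pairs went in the study's own direction for most genes tested. For the CD3 zeta chain, the study reports higher qRT-PCR values in allogeneic explants than in syngeneic ones. Which of the directions is right could not be settled from the labels and files. A negative log2 ratio here means less signal in the sample labelled as allogeneic. Throughout, the words syngeneic and allogeneic name the samples by these labels. *Cd5* had the largest mean difference with a log2 ratio of -0.97 ± 0.84 (SD, n = 12), followed by *Lck* with -0.70 ± 0.51, *Cd8a* with -0.32 ± 0.22 and *Cd2* with -0.26 ± 0.24. No member was significantly higher (0 of 11 probes by limma, also at an unadjusted p under 0.05, against 8.78% of all probes called higher). The 4 calls are 4 of 10 genes and 4 of 11 probes, against 8.48% of all probes called lower and 17.3% called in either direction (limma, adjusted p under 0.05). By gene mean, 7.59% of all genes were called lower and 16.3% in either direction, and the same 4 genes were called. At an unadjusted p under 0.05 there were 6 of the 11 probes, against 30.2% of all probes. The median log2 ratio of the 11 probes was -0.16, and that of all probes was 0.011.

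**Figure D1:**
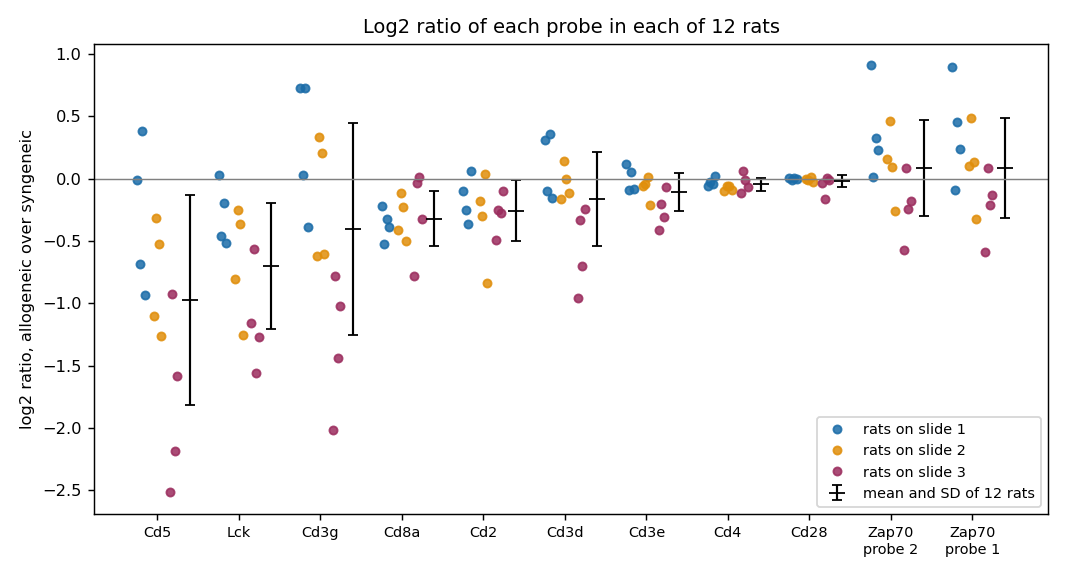
The log2 ratio of allogeneic over syngeneic signal (vertical axis) is plotted for each of the 11 probes (horizontal axis) as 1 point per rat, coloured by slide, with the mean and SD of 12 rats beside the points. *Cd5*, *Lck* and *Cd3g* spread most widely, with the lowest points among rats of slide 3, while *Cd28* and *Cd4* lie close to 0.

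The 3 invariant CD3 chains did not pass the test. *Cd3g*, which encodes the gamma chain, had a level of 8.57 to 11.8 (median 9.18, log2 intensity) in the syngeneic samples and of 8.12 to 11.0 (median 8.88) in the allogeneic samples. The ranges overlapped, and the highest value of both was that of rat 10 with its bright array. Without rat 10 the ranges were 8.57 to 10.4 and 8.12 to 9.52. Its log2 ratio of -0.40 ± 0.85 (adjusted p = 0.268) had a 95% interval of -0.94 to 0.14, and it was lower in 7 of 12 rats. The values of single rats ran from -2.02 in rat 9 to 0.73 in rat 1, and without rat 9 the mean was -0.26.

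*Cd3d*, the delta chain, differed by -0.16 ± 0.38 (adjusted p = 0.321, interval -0.40 to 0.078) and was lower in 9 of 12 rats, with a mean of -0.090 without rat 9. Its levels of 9.62 to 10.4 (median 9.81) in syngeneic and 9.34 to 10.2 (median 9.72) in allogeneic samples overlapped. *Cd3e*, the epsilon chain, differed by -0.11 ± 0.15 (adjusted p = 0.105, interval -0.20 to -0.011). It was also lower in 9 of 12 rats, and its levels were 7.07 to 7.75 (median 7.47) and 6.87 to 7.53 (median 7.41), which overlapped as well. The largest of the 3 mean differences was thus found in the chain with the largest spread between rats.

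Of the co-receptors, *Cd8a* had lower signal in 11 of 12 samples labelled as allogeneic and *Cd4* could hardly be measured. *Cd8a* encodes the alpha chain of CD8, which marks cytotoxic T cells and, in rats, also many NK cells. Its level was 6.95 to 7.84 (median 7.45) in the syngeneic samples and 6.63 to 7.48 (median 7.13) in the allogeneic samples, so that the groups overlapped although nearly every pair moved in 1 direction. The log2 ratio of -0.32 ± 0.22 is a 1.25-fold lower signal (adjusted p = 0.00349), and it ranged from -0.78 in rat 9 to 0.013 in rat 11. The size depended on the background correction, with -0.62 from the processed signals of the scanner software, -0.53 with an offset of 0 and -0.57 in the deposited table, each of them called. The *Cd8a* signal exceeded background clearly on 23 of 24 allogeneic and on all 24 syngeneic channels.

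*Cd4*, which marks helper T cells and in rats also macrophages, exceeded background clearly on 13 of 24 arrays in either sample. Its level was 6.45 to 8.06 (median 6.54) in syngeneic and 6.44 to 8.12 (median 6.51) in allogeneic samples, and the highest value of both groups belonged to rat 10 with its bright array. The log2 ratio was -0.045 ± 0.051 with 10 of 12 rats lower (adjusted p = 0.0908). Limma called it without rat 10 (-0.055, adjusted p = 0.027) and with rat 10 taken from its other array (-0.050, adjusted p = 0.0344). The call depended on the background correction as well, since with the processed signals the ratio was -0.27 (adjusted p = 0.0093) and with an offset of 0 in place of 50 it was -0.15 (adjusted p = 0.0211).

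The kinases moved unequally. *Lck*, the SRC family kinase bound to the co-receptors, had levels of 7.74 to 9.86 (median 9.01) in the syngeneic and 7.17 to 8.84 (median 8.43) in the allogeneic samples. The ranges overlapped, and 11 of 12 rats had the lower value in the sample labelled as allogeneic. The log2 ratio of -0.70 ± 0.51 is a 1.62-fold lower signal (adjusted p = 0.00389), with values from -1.56 in rat 11 to 0.032 in rat 1. It rests on 1 spot per array.

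*Zap70* encodes the kinase that binds phosphorylated CD3 chains. Its probe 1 had a log2 ratio of 0.086 ± 0.40 (adjusted p = 0.649, interval -0.17 to 0.34) and was higher in 7 of 12 rats, with a mean of 0.013 without rat 1. Probe 2 gave 0.085 ± 0.39 (adjusted p = 0.642), and the 2 probes had a correlation of 0.988 over the rats. Levels at probe 1 were 8.74 to 10.7 (median 9.32) in syngeneic and 8.91 to 10.8 (median 9.26) in allogeneic samples and overlapped. *Lck* lay below *Zap70* in 12 of 12 rats by 0.78 ± 0.27 on the log2 ratio scale (exact permutation of the signs, two-sided, p = 0.000488, the smallest this design allows, adjusted p = 0.0044 over 45 pairs of genes).

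**Figure D2:**
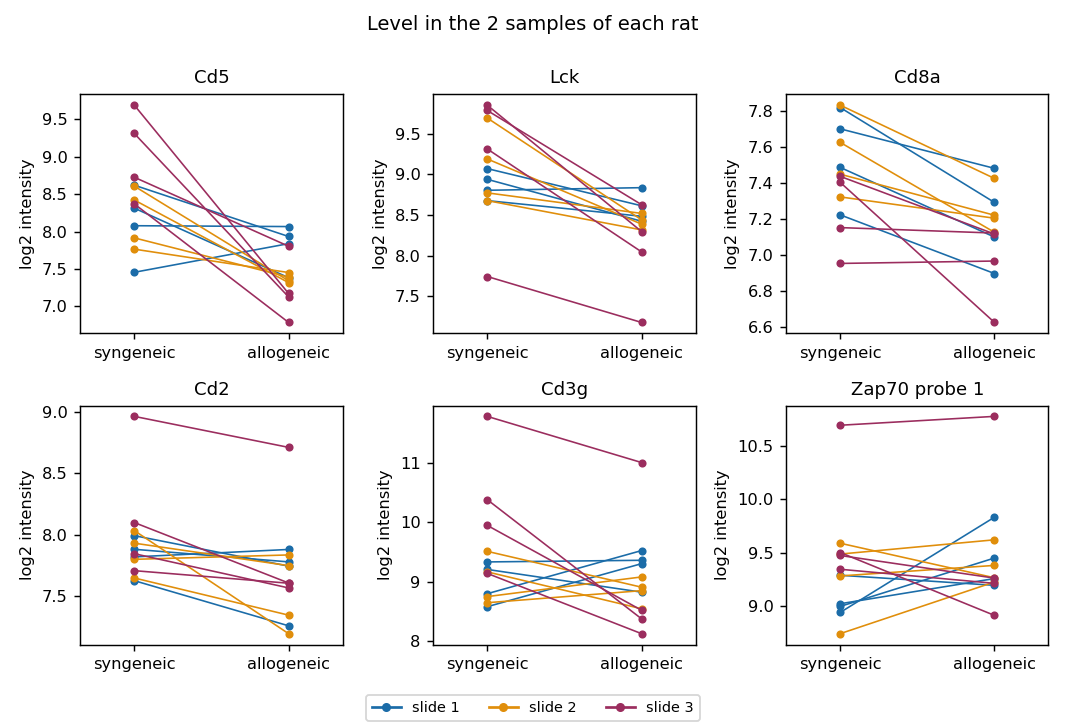
Log2 intensity (vertical axis, with its own scale in each panel) in the syngeneic and the allogeneic sample is shown for 6 probes, with 1 line per rat coloured by slide. Lines fall in 11 of 12 rats for *Cd5*, *Lck* and *Cd8a* and in 10 for *Cd2*, whereas those of *Cd3g* and *Zap70* run in both directions.

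*Cd5*, the inhibitory scavenger receptor family member on T cells, showed the widest range of log2 ratios between rats among the members. Its level was 7.46 to 9.69 (median 8.40) in the syngeneic and 6.79 to 8.07 (median 7.39) in the allogeneic samples. The groups overlapped, although the median of the allogeneic samples lay below the lowest syngeneic sample. The log2 ratio of -0.97 ± 0.84 is a 1.96-fold lower signal (adjusted p = 0.0107), and 11 of 12 rats were lower. It was -2.52 in rat 9, -2.19 in rat 11 and -1.58 in rat 12, against 0.38 in rat 3. With processed signals the mean was -1.47.

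*Cd2*, the adhesion receptor of T and NK cells, had levels of 7.63 to 8.96 (median 7.86) in syngeneic and of 7.20 to 8.71 (median 7.68) in allogeneic samples, which overlapped. Its log2 ratio of -0.26 ± 0.24 is a 1.19-fold lower signal (adjusted p = 0.0181), lower in 10 of 12 rats. The lowest value was -0.84 in rat 8, the rat that stood apart from the others over all probes. Without rat 8, *Cd2* was still called, and its log2 ratio was -0.20. It was -0.39 with processed signals and in the deposited table, and called in both. *Cd28*, the main co-stimulatory receptor, exceeded background clearly on only 2 of 24 arrays in either sample. Its ratio of -0.018 ± 0.048 (adjusted p = 0.507) is therefore a value at background rather than a measurement of equal expression.

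Ordered by mean log2 ratio, the genes ran from *Cd5* over *Lck*, *Cd3g*, *Cd8a*, *Cd2*, *Cd3d*, *Cd3e*, *Cd4* and *Cd28* to *Zap70*. Of the 45 pairs, 26 differed in their log2 ratio within rats (exact permutation of the signs, adjusted p under 0.05 over the pairs). Of these, 8 set another gene against the dim *Cd4* or *Cd28*, and among the 28 pairs of the other genes 18 differed. None of the 9 pairs of neighbours in this order did, with *Cd5* against *Lck* closest to the threshold (difference -0.27 ± 0.45, exact permutation p = 0.043, adjusted p = 0.0691). *Cd3g* lay above *Cd5* in 12 of 12 rats, by 0.57 ± 0.18 (adjusted p = 0.0044, exact permutation), although both spread widely. Differences between ratios compare how much the signals changed and not how high the genes were expressed. The offset draws the ratio of a dim probe such as *Cd4* or *Cd28* towards 0. Other members depended on it as well. With an offset of 0, *Cd8a* had -0.53 and *Cd5* -1.33, whereas *Cd3d* had -0.18 and probe 1 of *Zap70* 0.090. The differences between pairs were not recomputed with another background correction.

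The mean differences of some members were unequal between the slides, although no test of this passed after adjustment. The rats of slides 1, 2 and 3 had mean log2 ratios of -0.31, -0.80 and -1.80 for *Cd5*, of -0.28, -0.67 and -1.14 for *Lck* and of 0.28, -0.17 and -1.31 for *Cd3g*. For *Cd8a* the means were -0.37, -0.31 and -0.28, and for *Cd2* they were -0.16, -0.32 and -0.28. *Cd5*, *Lck*, *Cd8a* and *Cd2* were thus lower on average within each slide, whereas *Cd3g* and *Cd3d* (0.10, -0.033 and -0.56) were lower on average on slides 2 and 3 alone. *Zap70* was higher on slides 1 and 2 (0.37 and 0.098 at probe 1) and lower on slide 3 (-0.21).

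A limma F test of a difference between slides had unadjusted p-values of 0.00266 for *Cd3g*, 0.00641 for *Cd3d*, 0.00898 for *Cd5*, 0.0209 for *Lck* and 0.0345 for *Cd3e*. After adjustment over all probes, none passed (adjusted p = 0.927 for each of these 5), and 0 of 8453 probes did. At an unadjusted p under 0.05 there were 217 probes (2.57%). Which animals were hybridized on a slide and the slide itself cannot be told apart. Without slide 3, in 8 rats, only *Cd8a* was called, and *Cd5* had -0.56 (adjusted p = 0.117), *Lck* -0.48 (adjusted p = 0.0655) and *Cd2* -0.24 (adjusted p = 0.177). Without slide 1, *Cd5* and *Lck* were called, and *Cd8a* had -0.30 (adjusted p = 0.0745) and *Cd2* -0.30 (adjusted p = 0.0715). *Cd2* also lost its call without the 4 rats whose arrays had a correlation under 0.5 (-0.24, adjusted p = 0.171).

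**Figure D3:**
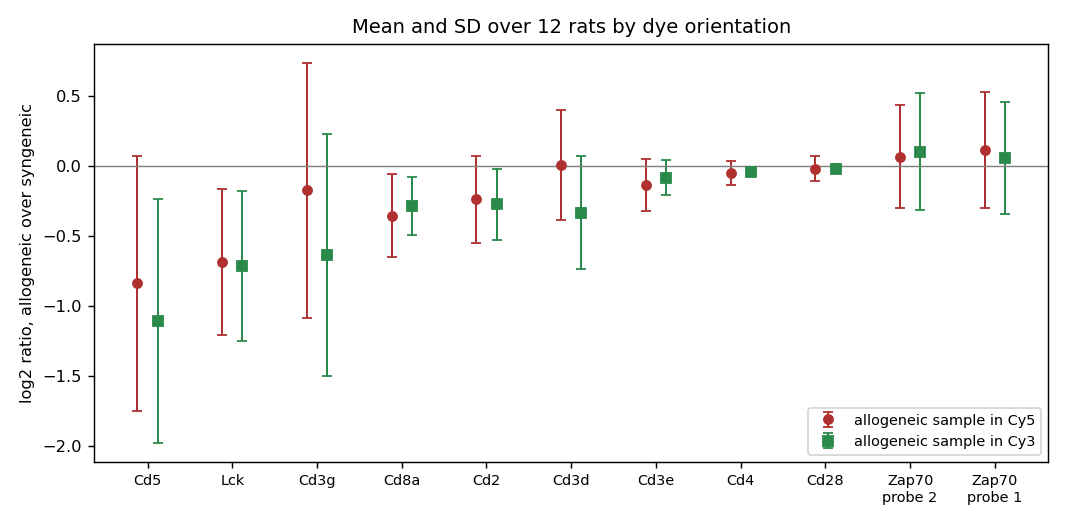
For each probe (horizontal axis) the mean and SD of the log2 ratio over 12 rats (vertical axis) is given for the arrays with the allogeneic sample in Cy5 and for those with it in Cy3. *Cd3d* and *Cd3g* lie higher with the allogeneic sample in Cy5, and the orientations of *Lck*, *Cd8a* and *Cd2* lie close together.

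With the dyes exchanged, the 4 significant genes kept the direction of their mean over the rats. *Cd5* had -0.84 ± 0.91 with the allogeneic sample in Cy5 and -1.11 ± 0.87 with it in Cy3. *Lck* had -0.68 ± 0.52 and -0.71 ± 0.53. In rat 10, *Cd5*, *Cd2* and *Cd8a* changed sign. Its bright array, with the allogeneic sample in Cy5, had 0.11, 0.21 and 0.29, and its other array -1.95, -0.71 and -0.35. The average of both arrays, by which this rat was counted, was negative for each of them. *Lck* was lower on both arrays (-0.089 and -1.04). *Cd2* also changed sign in rat 4, *Cd8a* in rat 11 and *Lck* in rat 1. A dye effect, as Cy5 over Cy3, was called for *Cd3d* (0.17 ± 0.13, adjusted p = 5.52e-04) and *Cd3g* (0.23 ± 0.25, adjusted p = 0.00659), against 52.0% of all probes. As a result *Cd3d* had 0.0066 in the Cy5 orientation and -0.33 in the Cy3 orientation, where it was called (adjusted p = 0.037). Averaging both orientations removes an effect that is equal in size in both.

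Of the 45 pairs of genes, 15 passed a permutation test on their log2 ratios (Pearson r = 0.777 to 0.977, median 0.871, n = 12 rats, adjusted over the pairs). They were all the pairs among *Cd3d*, *Cd3e*, *Cd3g*, *Cd5*, *Lck* and *Zap70*. These 6 genes were grouped after this result was seen, and their log2 ratios rose and fell together. None of the other 30 pairs passed (r = -0.51 to 0.57, median 0.253, permutation test). The closest pair was *Cd3g* and *Cd5*, with r = 0.977 (permutation p = 1e-05, the smallest that 100000 resamples can give, adjusted p = 0.00015) and rho = 0.944. *Zap70*, whose mean was near 0, followed *Cd3e* with r = 0.860 and rho = 0.867 and *Lck* with r = 0.848 and rho = 0.839 (permutation tests, adjusted p = 0.0018 and 0.00135 for r). For *Cd8a* and *Cd2*, the correlation with *Cd5* was 0.281 and 0.254 and did not pass (permutation tests, adjusted p = 0.585 for both).

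By Spearman's rho the 15 pairs passed as well. After the 2 rats farthest from the median of 1 gene of a pair were left out, r of the 15 pairs was 0.690 to 0.966 and 11 of them passed. After the mean of each slide was subtracted, r was 0.544 to 0.949 and 10 of the 15 passed (permutation within slides), as did *Cd8a* with *Zap70* (r = 0.744, adjusted p = 0.0225). The slide-centred r of *Cd8a* was also higher than the pooled one with *Cd3g* (0.704, adjusted p = 0.057), *Cd5* (0.637, adjusted p = 0.167) and *Cd3d* (0.609, adjusted p = 0.225), which did not pass. Whether *Cd8a* differs from the 6 genes in this was not tested. With 4 rats per slide, no correlation within a slide was computed. All values share the same arrays, and the ratios of *Cd4* and *Cd28* had little range to follow.

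**Figure D4:**
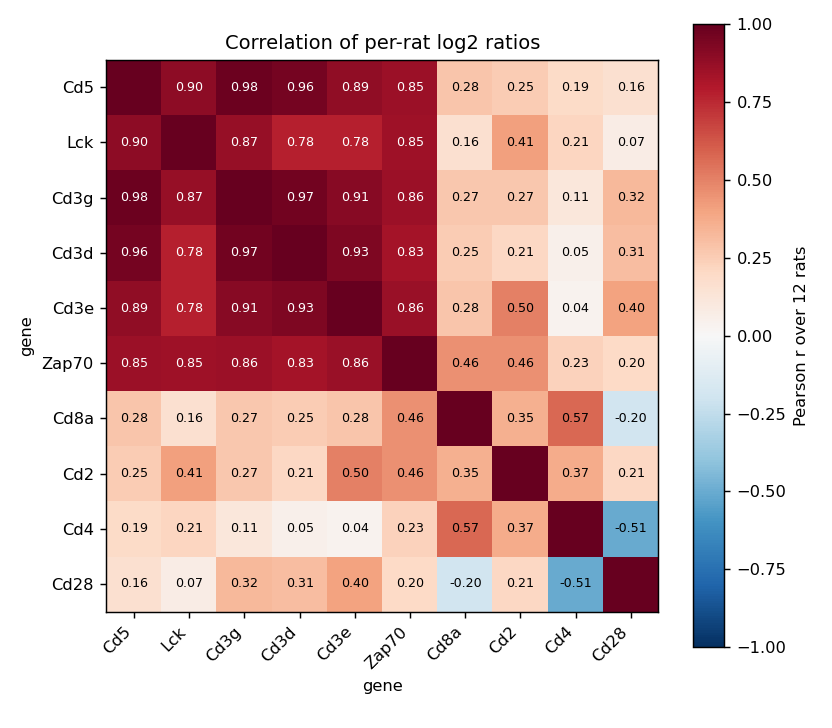
Pearson correlations over 12 rats between the log2 ratios of the 10 genes are shown as a colour scale from -1 to 1 with the value in each cell (both axes list the genes). The 6 genes *Cd5*, *Lck*, *Cd3g*, *Cd3d*, *Cd3e* and *Zap70* form a block of values from 0.777 to 0.977, and *Cd8a*, *Cd2*, *Cd4* and *Cd28* lie outside it.

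Of the other genes on the array, *Tcrb*, a T cell receptor beta chain, had the highest r with *Cd3g* (0.983), *Cd5* (0.983) and *Cd3d* (0.956), and its own log2 ratio was -0.72 (adjusted p = 0.0557). *Cd6*, a receptor related to *Cd5*, was second for *Cd5* (0.975) and *Cd3d* (0.950) and first for *Cd3e* (0.889). *Ptprcap*, which encodes a protein bound to CD45, followed *Cd3g* with 0.944 and *Cd3d* with 0.932. *Cd247*, the CD3 zeta chain, was near *Cd3e* (0.874) and probe 2 of *Zap70* (0.895), with a log2 ratio of -0.074 (adjusted p = 0.284). *Septin1* followed for *Cd3e* (0.877), and *Il21r*, the receptor of IL-21, for *Cd5* (0.934). The mean ratio of all members was closest to *Tcrb* (0.960), *Cd247* (0.951) and *Cd6* (0.945).

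For *Lck* the nearest was LOC299915 (0.960), which the files describe as similar to a lymphocyte tyrosine kinase and which may share sequence with *Lck*, followed by LOC679957 (0.949) and *Camk4* (0.935). Probe 1 of *Zap70* was nearest to *Septin1* (0.912), *Lat2* (0.906) and *Gpr132* (0.896). *Cd8a* had other neighbours, *Il10ra* (0.894), *Akap3* (0.838) and *Gab2* (0.827), and so did *Cd2* with *Msra* (0.945), *Card9* (0.914) and *Arhgdig* (0.905). For *Cd4* the named genes were *Or4f52* (0.870) and *Ptpn7* (0.861), and for *Cd28* they were *Or51b17*, *Mas1* and *Crhr1* (0.951 to 0.975), next to a member at background. An r of 0.7 or more with *Cd5* was found in 136 of 8442 other probes (1.61%), with *Cd3g* in 110 (1.30%), with *Cd8a* in 65 (0.770%) and with *Cd2* in 239 (2.83%). These are descriptions over 12 rats, and likeness was searched over all probes.

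Promoter sequences from RefSeq (build GRCr8) were found for 9 of the 10 genes, with 2 starts for *Lck*. The 250 bases before the start are printed for the closest pair, *Cd5* (chr1:216811210-216811459, minus strand) and *Cd3g* (chr8:54183919-54184168, minus), and for *Cd8a* (chr4:104923866-104924115, plus), whose pooled correlation with them did not pass. Capitals mark GGAA on either strand, the core of sites of ETS factors. It was present in 9 of the 10 windows of the members and in 93.2% of 33469 promoters of the same length. GATA, searched on both strands, was found in 4 of the 10 windows (55.9% of all), CANNTG in 7 (65.5%) and TGTGGT on either strand in 3 (14.5%). Matches to letters this short are a description of the sequence.
Cd5: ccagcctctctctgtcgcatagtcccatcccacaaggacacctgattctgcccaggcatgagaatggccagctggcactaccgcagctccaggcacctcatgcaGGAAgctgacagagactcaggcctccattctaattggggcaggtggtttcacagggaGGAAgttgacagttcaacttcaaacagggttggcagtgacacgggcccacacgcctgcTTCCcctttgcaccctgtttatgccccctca
Cd3g: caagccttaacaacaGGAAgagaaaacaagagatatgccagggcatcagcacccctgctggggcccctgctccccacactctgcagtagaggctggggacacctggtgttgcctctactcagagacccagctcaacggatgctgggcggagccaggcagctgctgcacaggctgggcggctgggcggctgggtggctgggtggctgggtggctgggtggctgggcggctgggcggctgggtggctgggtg
Cd8a: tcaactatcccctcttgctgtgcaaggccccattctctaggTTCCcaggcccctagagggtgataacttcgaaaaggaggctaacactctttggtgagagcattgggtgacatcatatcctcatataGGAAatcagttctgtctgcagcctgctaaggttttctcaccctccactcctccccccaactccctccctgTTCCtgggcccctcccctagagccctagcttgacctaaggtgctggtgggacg

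Of 20 measured T cell surface genes, 9 were lower and 0 higher, against 7.59% of all genes called lower. The median of their 23 probes was -0.21. *Cd8b*, the partner of *Cd8a*, had -0.49 ± 0.23 (adjusted p = 2.89e-04) and was lower in 12 of 12 rats. *Cd6* had -0.63 ± 0.49 (adjusted p = 0.00585), and *Ptprc*, which encodes CD45, had -0.78 ± 0.92 (adjusted p = 0.0473). The 3 chains of the IL-2 receptor were lower as well, with -0.75 ± 0.43 and -0.51 ± 0.31 at the 2 probes of *Il2rb*, -0.32 ± 0.27 at 1 probe of *Il2rg* and -0.21 ± 0.20 for *Il2ra*. The other probe of *Il2rg* had -0.031 (adjusted p = 0.413). The activation marker *Cd69* (-0.29) and *Cd40lg* (-0.049, near background) were also lower. The summed intensity of the list was 19281 to 28501 in syngeneic and 15886 to 25958 in allogeneic samples, lower in 11 of 12 rats.

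Among 52 measured genes of signalling downstream of the receptor, 7 were lower and 2 higher, against 16.3% of all genes called, and the median of 60 probes was -0.0023. Among the lower ones, the exchange factor *Vav1* had -0.85 ± 0.50 and the adaptor *Lcp2* (SLP-76), a substrate of ZAP-70, had -0.78 ± 0.47 (adjusted p = 0.00112 and 0.00117). The phosphatase *Ptpn6*, the inhibitor *Nfkbia*, the adaptor *Grb2* and the kinase *Dgkz* were lower by smaller amounts, with log2 ratios between -0.41 and -0.14 at their called probes. A second *Nfkbia* probe had -0.24 (limma, adjusted p = 0.141). The phospholipase *Plcg1* was higher by 0.29 ± 0.14 (adjusted p = 4.6e-04, 12 of 12 rats) and the GTPase *Hras* by 0.11 and 0.18. Most genes of this list are active in many cell types, skin cells included.

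Of 21 measured transcription factors and cytokines of T cells, 5 were lower, against 7.59% of all genes called lower. They were *Csf2* (-0.61 ± 0.33), *Lta* (-0.45 ± 0.34 and -0.14 ± 0.10), *Tnf* (-0.16 ± 0.099), *Il2* (-0.14 ± 0.098) and *Tbx21* (-0.10 ± 0.080). *Il2* exceeded background clearly on 3 of 24 arrays in the allogeneic and 5 of 24 in the syngeneic sample, *Tbx21* on 9 and 16, and the second probe of *Lta* on 4 and 11. Another *Tbx21* probe had -0.049 (adjusted p = 0.0963). *Gata3*, a factor of T helper cells that keratinocytes also express, was higher by 0.21 ± 0.17 (adjusted p = 0.0076). The median of the 24 probes was -0.048. The summed intensity was 22551 to 52558 in syngeneic and 24079 to 54471 in allogeneic samples, lower in 4 of 12 rats.

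Of 105 probes that the files describe as T cell receptor chains, 4 were lower and 3 higher, and their median was -0.0028. Of all probes, 8.48% were called lower and 8.78% higher. The list of chains was drawn up after the files had been read, and most of its probes were designed to single variable segments. Among the lower ones of the list, 2 probes described as a gamma chain had -0.35 ± 0.26 and -0.26 ± 0.19 (adjusted p = 0.00389 and 0.00468, each lower in 12 of 12 rats). The latter exceeded background clearly on 10 of 24 arrays in the allogeneic and 21 in the syngeneic sample. An alpha chain probe had -0.58 ± 0.49 (adjusted p = 0.00922). The remaining lower probe was at background, exceeding it clearly on 1 of 24 arrays in either sample, and the 3 higher ones had 0.14 to 0.28. The lowest log2 ratio of the list, that of *Tcrb* (-0.72 ± 0.88), was not called (limma, adjusted p = 0.0557). The summed intensity was 22922 to 51464 in syngeneic and 28000 to 49495 in allogeneic samples, lower in 10 of 12 rats.

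Of 14 NK cell genes, 5 were lower and 0 higher (median -0.086), against 7.59% of all genes called lower. *Gzmc* had -1.34 ± 0.68, and *Gzmb* had -1.06 ± 0.70 and -0.31 ± 0.27. *Gzma* (-0.38), *Nkg7* (-0.31) and *Klrb1a* (-0.12) were lower as well, while the other 9, among them the receptors *Klrd1*, *Klrk1* and *Ncr1*, were not called. The summed intensity of the NK list was 3203 to 8494 in syngeneic and 2690 to 3841 in allogeneic samples, lower in 12 of 12 rats. Several of these genes, granzymes above all, are also expressed by cytotoxic T cells. Of 17 macrophage and monocyte genes, 10 were lower and 2 higher (median -0.46), against 16.3% of all genes called in either direction. *Fcgr3a* had -2.19 ± 0.40 and *Trem2* -1.69 ± 0.67, and *C1qa* and *C1qc* were higher by 0.21 and 0.19. *Ctss*, *Aif1*, *Fcgr2b*, *Tyrobp*, *Spi1*, *Itgam* and *Csf1r* were lower as well, with log2 ratios from -1.40 to -0.42 at their called probes. A second *Csf1r* probe had -0.027 (adjusted p = 0.409). The summed intensity was 46836 to 127949 and 36899 to 70071 and was lower in 12 of 12 rats.

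Of 6 B cell genes, 0 were called by limma (median -0.020) and 1 had an unadjusted p under 0.05, which 30.2% of all probes had. *Ms4a1*, which encodes CD20, had -0.050 ± 0.82. Their summed intensity was 676 to 4104 in syngeneic and 649 to 3844 in allogeneic samples, lower in 7 of 12 rats. Of the 4 keratinocyte genes, 0 were called by limma and 2 had an unadjusted p under 0.05, against the same 30.2% (median 0.23, *Tp63* at 0.30 ± 0.75 and *Jup* at 0.26 ± 0.33), and of the 2 fibroblast genes *Col1a2* was higher by 0.55 ± 0.40 (adjusted p = 0.00399). The summed intensity was 14019 to 53685 and 11835 to 60185 for keratinocytes, and 3808 to 23496 and 5844 to 36399 for fibroblasts. It was lower in the allogeneic sample in 2 and 1 of 12 rats. The part of the cell composition in the differences of the 10 genes was not tested.

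**Figure D5:**
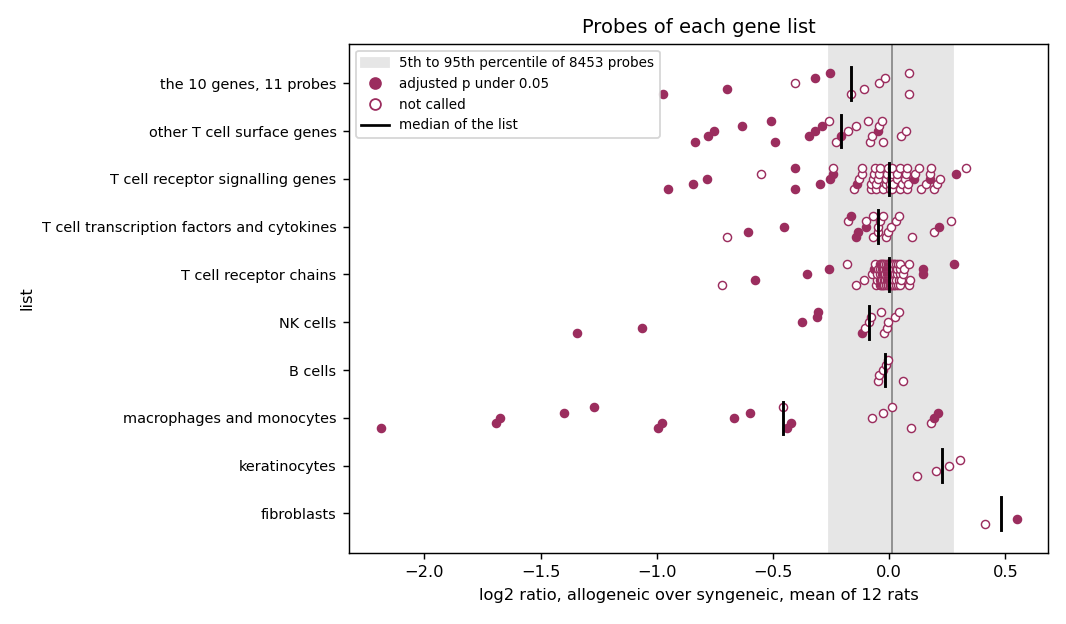
Mean log2 ratios of 12 rats (horizontal axis) are plotted for the probes of the 10 genes and of each further list (vertical axis), filled where the adjusted p was under 0.05, with the median of each list as a bar. The grey band covers the 5th to 95th percentile of all probes (-0.26 to 0.27). Called probes of T cell surface, NK cell and macrophage genes lie mostly to the left of the band, and those of B cells, keratinocytes and most T cell receptor chain probes lie within it or close to it.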

How the data were processed

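The authors hybridized both explants of each of 12 rats to 2 two-color Agilent arrays with exchanged dyes. Spot and local background intensities in the deposited scanner files came from Feature Extraction 9.5.1.1, and its processed intensities are background-subtracted and dye-normalized. The authors also deposited a table of log2 ratios. Its columns had a correlation of 0.707 to 0.955 with the processed log ratios after these were turned by the dye labels. The table therefore runs as allogeneic over syngeneic as labelled, which cannot settle whether the labels are right. The centring of the deposited table is not stated (column medians -0.027 to 0.022). Labels and methods name different amplification kits.

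In R 4.3.3, intensities were corrected with normexp (offset 50) and normalized by loess within arrays (limma 3.58.1), without outlier and control spots. Log ratios were turned by the dye labels, averaged for each probe and then for each rat. A limma fit over the 12 rats tested whether the mean of each of the 8453 probes was 0 (Benjamini-Hochberg adjustment). Levels are log2 intensities after loess and Aquantile normalization. Summed intensities add the levels of a list on the linear scale, so that bright probes weigh most. They were not set beside a sum over all probes. The 95% intervals rest on the SD of 12 rats. Correlations used 100000 permutations, and differences between 2 genes all 4096 sign changes, in Python. The number of arrays limits the precision. Scripts were tested on simulated data.

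The 10 genes and all lists were chosen with earlier results of these data known. Named genes are the members, the called genes of a list or else the 2 with the largest ratio, and the 3 probes closest to each member, of which those with a gene name are given. A few genes of the lists are not reported here by name. Alternatives covered background correction, normalization, dyes, dim spots, slides, tests, the deposited table and left-out rats. Names followed RefSeq accessions for 4405 probes and the files for 4048. Probe positions are those of the files (rn3), and exon or intron was not looked up.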

Additional observations from a re-analysis of the deposited data

How the results depend on the processing

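Each of the 11 probes was recomputed under up to 33 alternatives. *Cd5*, *Lck* and *Cd8a* kept direction and call in 32 of 33, and *Cd2* in 30, with the exceptions given among the results. With each rat left out in turn, these 4 genes stayed called, 4 to 5 of the 11 probes were called, and all probes gave 1155 to 2087 calls (4 to 5 genes and 936 to 1756 by gene mean). The rat as a replicate block over 24 arrays called 5 of the 11 probes, *Cd3e* being added (-0.11, adjusted p = 0.032), and 1729 of all. The pairing of the samples lies within each array, and the block changed no other call among the 11 probes. *Cd4* passed in 7 alternatives, with values of -0.27 to -0.043.

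The sign turned for *Cd3d* with the allogeneic sample in Cy5 only (0.0066) and without slide 3 (0.035), for *Cd3g* without slide 3 (0.051) and for both *Zap70* probes without slide 1 (-0.057 each). None of these passed the test. With processed signals, the dye effect turned for *Cd2* (-0.017), *Cd28* (0.028), *Lck* (-0.037) and probe 1 of *Zap70* (-0.0017), none called. All probes gave 2659 calls with the allogeneic sample in Cy5 only and 2500 with it in Cy3 only. Alternatives chosen after seeing the data gave 878 calls without the 4 rats of weak array correlation, 738 without slide 1 (2 of the 11 probes) and 657 without slide 3 (1 of the 11 probes). Fewer rats enter these fits, and any further cause was not tested. The tests of slides, the slide-centred correlations and the group of 6 correlated genes were also chosen after seeing the data.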
